A study of Mus musculus with 11 samples.

Results

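Receptors of the tumor necrosis factor (TNF) superfamily and the proteins that couple them to their signaling pathways were followed in podocytes, the epithelial cells whose foot processes form the outer layer of the glomerular filter. The set held 10 listed genes, 7 receptors (*Tnfrsf1a*, *Fas*, *Tnfrsf21*, *Tnfrsf1b*, *Tnfrsf12a*, *Cd40* and *Ltbr*) and 3 adaptors and kinases (*Traf2*, *Traf3* and *Ripk1*), of 34547 genes with a matched transcript. All 10 were among the 21200 genes that passed the filter on low counts. Podocytes were sorted by FACS as live mTomato-positive cells from digested glomeruli of C57BL/6 mice (C57BL/6N in the study's methods). PodTOM mice carried the podocin-driven iCre and mTomato on 2 wild-type *Myd88* alleles, and MyD88pko mice carried the same Cre and reporter together with floxed *Myd88*, so that Cre and mTomato were shared by all groups and *Myd88* was deleted only where the podocin promoter is active. RNA of untreated (labelled healthy) PodTOM (n = 3) and MyD88pko mice (n = 2) was compared with RNA of PodTOM (n = 3) and MyD88pko mice (n = 3) with nephrotoxic nephritis (NTN), an immune-mediated glomerulonephritis evoked by 9 µl/g sheep serum against glomerular antigens on 2 consecutive days in male mice of 8 to 16 weeks and analyzed on day 5. Age and sex of the untreated mice that were sorted, and the number of mice behind a library, are not given in the sources used here, so the p-values measure the spread between libraries.

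TNF family receptors are activated by trimeric ligands and fall into groups by their intracellular part. Receptors with a death domain recruit adaptors such as TRADD or FADD and the kinase RIPK1, from which either NF-κB and MAP kinase signaling or cell death can follow, whereas receptors without a death domain bind TRAF proteins directly and act mainly on gene expression. TNF itself is a known mediator of injury in glomerulonephritis.

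The libraries held 14563271 to 19483013 estimated counts in untreated and 20080140 to 32764201 in NTN mice. *Myd88* was at 6.49 to 14.1 counts per 1000000 (CPM) in the 6 PodTOM libraries and at 0.200 to 0.976 CPM in the 5 MyD88pko libraries, as labelled. The 15 podocyte markers summed to 33919 to 64971 CPM over the libraries, and none of them was at 0. All PodTOM titles begin with a prefix other than that of the MyD88pko titles, so genotype and whatever the prefix stands for cannot be told apart. In NTN, 549 vomeronasal receptor genes, which serve pheromone sensing in the nose, summed to 141 to 443 CPM against 62.4 to 98.7 CPM in untreated libraries, and more genes were detected (24502 to 28672 against 18420 to 19996). Marker sums moved as well. In PodTOM libraries, the podocyte markers summed to 50429 to 64971 CPM untreated and 34638 to 39868 CPM in NTN, those of mesangial and smooth muscle cells to 141 to 207 untreated and 402 to 623 CPM in NTN, neutrophil markers to 12.4 to 24.6 and 29.6 to 49.7 CPM, lymphocyte markers to 13.0 to 19.5 and 32.7 to 43.5 CPM, parietal epithelial markers to 72.2 to 95.3 and 105.5 to 125 CPM, and macrophage and monocyte markers to 84.4 to 102 and 79.7 to 108 CPM. The last sum held opposite shifts in PodTOM NTN. *Ly6c2*, *Itgam* and *Ptprc* were called higher (*Ptprc* from 5.96 to 12.8 CPM on average), *Csf1r* was called lower (log2 fold change -0.77), and the median log2 fold change over the 14 genes tested was 2.05. Most of the mesangial rise in PodTOM NTN was *Tagln* (20.4 CPM on average untreated and 318 CPM in NTN), and of the 12 genes 5 were called higher, while *Rgs5* (31.4 and 15.6 CPM on average) and *Pdgfrb* (39.3 and 32.9 CPM) were not called. The glomerular endothelial sum was 2039 to 2827 CPM untreated and 1171 to 1469 CPM in NTN, and *Plat*, which podocytes also express, made up most of it (2146 and 1010 CPM on average), while 8 of the 15 genes were called higher. Of the 15 podocyte markers in PodTOM NTN, 9 were called lower and 4 were not called. The 2 called higher were *Tcf21* (97.3 and 211 CPM on average) and *Cdkn1c* (546 and 919 CPM). *Podxl* held the largest part of the podocyte sum (22843 and 14271 CPM on average). In PodTOM NTN 1 of 5 neutrophil and 2 of 8 lymphocyte genes tested were called higher (15.9% of all genes were). In MyD88pko libraries the neutrophil (17.1 to 23.8 CPM untreated, 19.5 to 42.3 CPM in NTN) and lymphocyte sums (17.5 to 21.7 and 18.4 to 53.4 CPM) overlapped. Macrophage sums overlapped there too. The podocyte, endothelial, mesangial and parietal sums did not, and moved as in PodTOM. The part of these shifts in the results that follow was not tested, and in bulk RNA fewer cells of a type and less RNA per cell cannot be told apart.

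Per transcript length, the receptor genes of untreated podocytes were dominated by *Tnfrsf12a* and *Tnfrsf21*. TPM (transcripts per 1000000 transcripts), computed here from the estimated counts and effective lengths, put *Tnfrsf12a*, the receptor for TWEAK, first at 225 ± 36.7 TPM in untreated PodTOM libraries (SD, n = 3), above 97.5% of the genes tested. *Tnfrsf21*, which encodes death receptor 6, followed at 136 ± 14.9 TPM, and the kinase gene *Ripk1* at 90.6 ± 4.08 TPM. *Traf3* came next at 23.8 ± 1.93 TPM. *Cd40* (13.4 to 15.1 TPM) overlapped *Fas* in range. *Ltbr* (7.78 to 11.6 TPM), *Traf2* (7.50 to 11.1 TPM), *Fas* (3.73 to 15.1 TPM) and *Tnfrsf1a* (5.98 to 9.07 TPM) overlapped and had no order beyond their spread. *Tnfrsf1b*, which encodes TNF receptor 2, was last at 0.837 ± 0.710 TPM. The untreated MyD88pko libraries had the same 4 genes on top in the same order, with 245 ± 10.5 TPM for *Tnfrsf12a* and 116 ± 17.5 TPM for *Tnfrsf21* (n = 2), although *Tnfrsf21* and *Ripk1* overlapped there. In PodTOM NTN, *Tnfrsf12a* was at 419 ± 157 TPM, *Tnfrsf21* at 62.2 ± 8.74 TPM and *Ripk1* at 57.1 ± 16.1 TPM, the last 2 overlapping. The receptors best known for TNF itself, *Tnfrsf1a* and *Tnfrsf1b*, held 1.82% and 0.209% of the summed TPM of the 7 receptors in untreated PodTOM podocytes.

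During NTN, 4 of the 10 genes rose and 1 fell in PodTOM podocytes. *Tnfrsf1a*, *Tnfrsf1b*, *Tnfrsf12a* and *Ltbr* were higher and *Tnfrsf21* was lower, by edgeR's quasi-likelihood test with Benjamini-Hochberg adjustment over all genes. The share of all genes called in this comparison was 25.9% (15.9% higher and 9.93% lower, with 40.4% at an unadjusted p under 0.05). The median log2 fold change of the 10 genes was 0.35, compared with 0.19 over all genes tested. For 5 of the 10 genes all NTN libraries were above all untreated libraries, as for 26.8% of all genes, and for 1 they were all below, as for 16% of all genes. All 5 called genes were receptors, and none of *Traf2*, *Traf3* and *Ripk1* was called by this test, although other tests called *Ripk1* (below). Without untreated PodTOM replicate 2 the 5 calls became 3. The vomeronasal signal was at 62.4 to 98.7 CPM in untreated and at 141 to 443 CPM in NTN libraries, without overlap. A fit with this signal as a covariate therefore cannot tell its part from that of NTN, here or below. When the vomeronasal signal entered the model as a covariate, *Tnfrsf1a* (log2 fold change 1.19, adjusted p = 0.171), *Tnfrsf21* (-0.56, adjusted p = 0.374) and *Ltbr* (1.15, adjusted p = 0.343) kept their direction and were no longer called by edgeR.

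**Figure D1:**
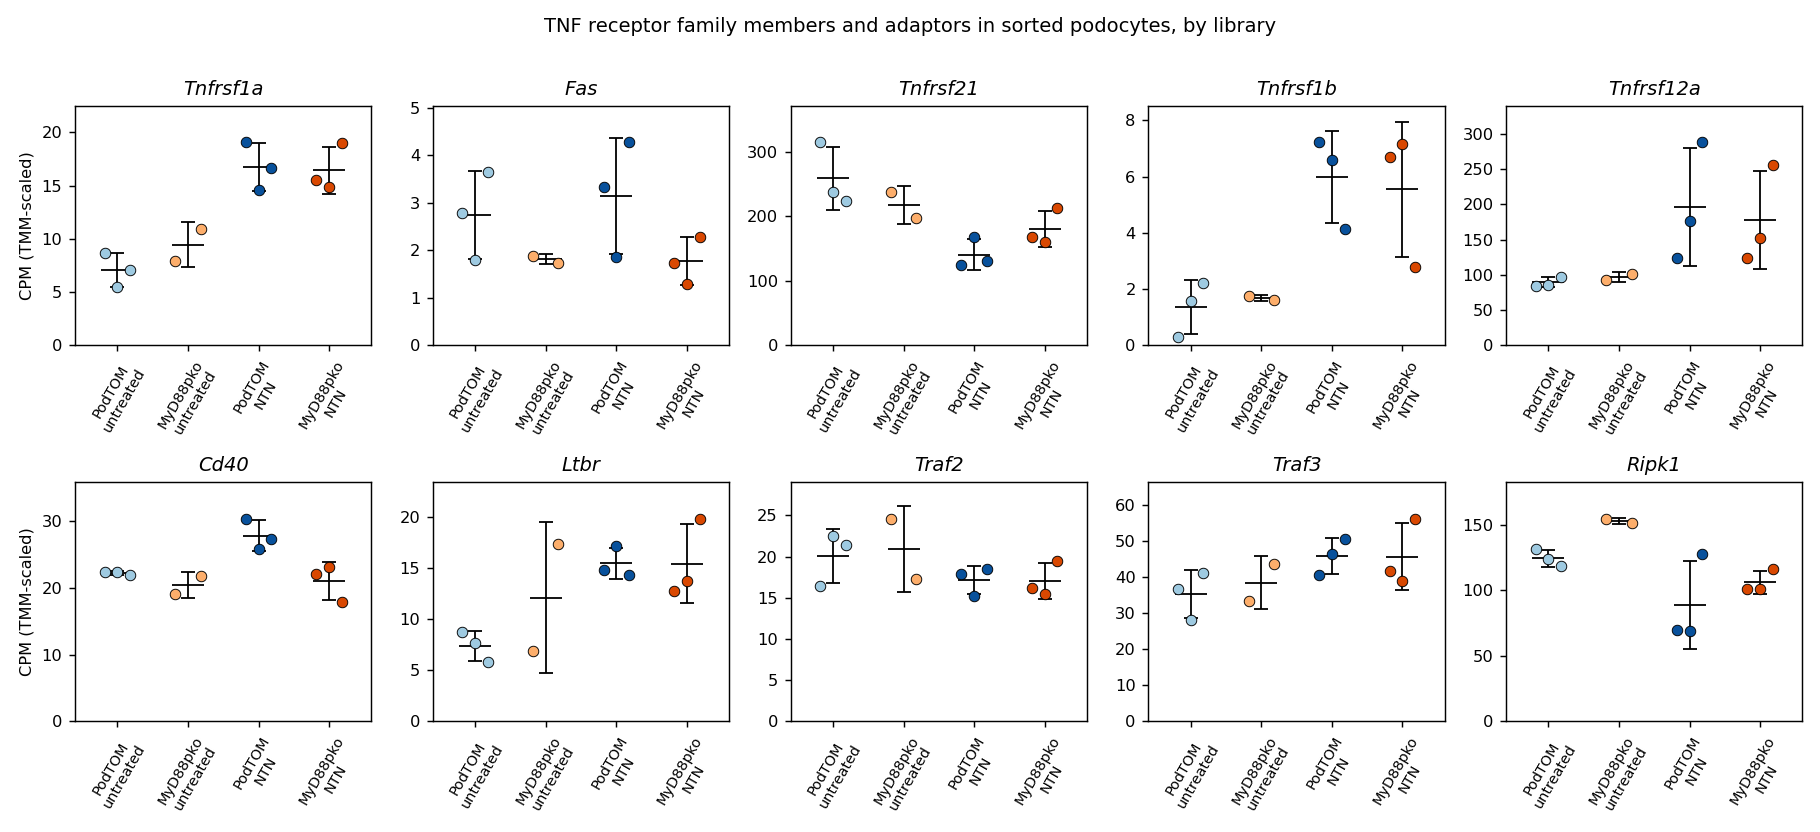
CPM of each of the 10 genes in each of the 11 libraries (y axes start at 0 and differ between genes), by group, with points for libraries and black bars for the mean ± SD. *Tnfrsf1a* lies at 14.6 to 19.1 CPM in the 6 NTN libraries and at 5.51 to 10.9 CPM in the 5 untreated libraries, whereas *Fas* and *Traf2* overlap between all groups compared.

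Among the receptors with a death domain, *Tnfrsf1a* encodes TNF receptor 1, the main receptor for soluble TNF. It lies on chromosome 6 (GRCm38, 125349362 to 125362484, plus strand). *Tnfrsf1a* was measured at 8.65, 5.51 and 7.04 CPM in untreated PodTOM libraries and at 19.1, 14.6 and 16.7 CPM in PodTOM NTN. The groups did not overlap, and the log2 fold change was 1.25 ± 0.25 (SE) with an adjusted p of 0.0024 (edgeR). In MyD88pko podocytes, *Tnfrsf1a* was at 7.94 and 10.9 CPM untreated and at 15.6, 14.9 and 19.0 CPM in NTN. These groups did not overlap either, but the log2 fold change of 0.80 ± 0.29 had an adjusted p of 0.0571 (edgeR).

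*Tnfrsf21* encodes death receptor 6, which has been linked to neuronal degeneration and to restraint of T and B cell responses. It lies on chromosome 17 (43016555 to 43089189, plus strand). Its level was 314.5, 238 and 224 CPM in untreated PodTOM libraries and 124, 168 and 130 CPM in NTN, with every NTN library below every untreated one. The log2 fold change was -0.88 ± 0.18 with an adjusted p of 0.00211 (edgeR). In MyD88pko libraries, *Tnfrsf21* was at 238 and 197 CPM untreated and at 168, 159 and 213 CPM in NTN. Here the groups overlapped, and the log2 fold change was -0.27 ± 0.19 (adjusted p = 0.317, edgeR).

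*Fas* encodes the receptor of Fas ligand, an inducer of apoptosis. It lies on chromosome 19 (34290666 to 34327772, plus strand) and was low in all libraries, with 26 to 90 estimated counts. Its level was 1.80 to 3.65 CPM in the untreated PodTOM group and 1.85 to 4.27 CPM in PodTOM NTN, and 1.74 to 1.89 CPM and 1.29 to 2.29 CPM in the MyD88pko groups. The groups overlapped in both genotypes. The 95% interval of the log2 fold change in PodTOM NTN was -0.85 to 1.24, which held a 2-fold rise but not a 2-fold fall. In MyD88pko NTN the interval was -1.22 to 1.16, which held both.

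Of the receptors without a death domain, *Tnfrsf1b* had the largest log2 fold change of the 10 genes in PodTOM NTN, from the lowest level. TNF receptor 2, its product, is best activated by membrane-bound TNF and is found mainly on immune and endothelial cells. The gene lies on chromosome 4 (145213463 to 145246870, minus strand). *Tnfrsf1b* was at 0.309, 1.59 and 2.20 CPM in untreated PodTOM libraries and at 7.21, 6.59 and 4.12 CPM in NTN. The groups did not overlap, and the log2 fold change was 2.10 ± 0.55 with an adjusted p of 0.0111 (edgeR). The library with 0.309 CPM held only 3.75 estimated counts. In MyD88pko libraries, *Tnfrsf1b* was at 1.76 and 1.60 CPM untreated and at 6.71, 7.15 and 2.79 CPM in NTN, with a log2 fold change of 1.72 ± 0.63 (adjusted p = 0.0622, edgeR). The 3 NTN libraries with the most vomeronasal receptor signal (PodTOM replicate 1, MyD88pko replicates 2 and 1) held the 3 highest values of *Tnfrsf1b*. With that signal as a covariate the log2 fold change in PodTOM NTN was 0.97 (adjusted p = 0.707), and without those 3 libraries it was 1.95 (adjusted p = 0.0766).

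*Tnfrsf12a* encodes Fn14, a small receptor that is induced by growth factors and injury in many epithelia. It lies on chromosome 17 (23675445 to 23677468, minus strand). *Tnfrsf12a* was at 84.7, 85.8 and 97.6 CPM in untreated PodTOM libraries and at 124, 177 and 288 CPM in NTN. The lowest NTN library was above the highest untreated one, and the NTN libraries were spread over a range of more than 2-fold. The log2 fold change was 1.14 ± 0.29 with an adjusted p of 0.0119 (edgeR), which became 0.0703 and 0.0508 without untreated replicate 1 and replicate 2. In MyD88pko podocytes, *Tnfrsf12a* was at 92.4 and 102 CPM untreated and at 124, 153 and 256 CPM in NTN, which gave a log2 fold change of 0.87 ± 0.33 (adjusted p = 0.0741, edgeR). In both genotypes the NTN library with the least vomeronasal receptor signal (212 CPM in PodTOM, 141 CPM in MyD88pko) had the highest *Tnfrsf12a*. With that signal as a covariate the log2 fold change was 2.26 in PodTOM and 1.93 in MyD88pko (adjusted p = 0.00317 in the latter), and *Tnfrsf12a* was then the only one of the 10 genes called in either genotype.

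*Ltbr*, which encodes the lymphotoxin beta receptor of the non-canonical NF-κB pathway, lies on chromosome 6 (125306571 to 125313885, minus strand). Its level was 8.73, 7.63 and 5.78 CPM in untreated PodTOM libraries and 14.8, 17.2 and 14.3 CPM in NTN, without overlap. The log2 fold change was 1.07 ± 0.31 with an adjusted p of 0.0211 (edgeR). This call was lost without untreated replicate 2 (adjusted p = 0.0558), untreated replicate 3 (0.0783) or NTN replicate 2 (0.0722). In MyD88pko podocytes, the untreated libraries stood apart with 6.89 and 17.3 CPM, and the NTN libraries were at 12.7, 13.7 and 19.8 CPM, a log2 fold change of 0.35 ± 0.35 (adjusted p = 0.49, edgeR).

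*Cd40* encodes the receptor of CD40 ligand, a co-stimulator of antigen-presenting cells. It lies on chromosome 2 (165055627 to 165072948, plus strand). *Cd40* was at 22.5, 22.4 and 21.9 CPM in untreated PodTOM libraries and at 30.4, 25.9 and 27.3 CPM in NTN, without overlap. The log2 fold change of 0.32 ± 0.18 did not pass the test (adjusted p = 0.198, edgeR). In MyD88pko libraries, *Cd40* was at 19.1 and 21.8 CPM untreated and at 22.2, 23.2 and 17.8 CPM in NTN, with a log2 fold change of 0.04 ± 0.21.

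The adaptors and the kinase were not called in either genotype at the gene level by the main edgeR fit. TRAF2 is a RING-domain adaptor that links TNF receptors to IKK and JNK activation, and *Traf2* (chromosome 2, 25517982 to 25546940, minus strand) ranged from 15.2 to 24.6 CPM over all 11 libraries. Its log2 fold change was -0.23 ± 0.22 in PodTOM and -0.30 ± 0.24 in MyD88pko NTN. TRAF3 restrains non-canonical NF-κB signaling, and *Traf3* (chromosome 12, 111166370 to 111267153, plus strand) ranged from 28.1 to 41.2 CPM in the untreated PodTOM group and from 40.6 to 50.7 CPM in PodTOM NTN. Its log2 fold change was 0.38 ± 0.20 on counts (adjusted p = 0.158, edgeR) and -0.26 on log2(TPM + 1), so that no direction is given for this gene. RIPK1 is the kinase at the branch point of TNF receptor 1 signaling between NF-κB activation and cell death. *Ripk1* (chromosome 13, 34002363 to 34037147, plus strand) was at 131, 124 and 119 CPM in untreated PodTOM libraries and at 70.1, 69.0 and 128 CPM in NTN. NTN replicate 3 alone overlapped the untreated range. The log2 fold change was -0.49 ± 0.20 (adjusted p = 0.0771, edgeR), and it was -0.84 with an adjusted p of 0.00112 without that replicate. DESeq2 (adjusted p = 0.0408) and limma on log2(TPM + 1) (adjusted p = 0.0119) called *Ripk1* lower with all libraries. So did edgeR without a filter on low counts (adjusted p = 0.0458). With the vomeronasal signal as covariate the log2 fold change was 0.0031 (adjusted p = 1, edgeR), and without the 3 NTN libraries with most of that signal it was -0.35 (adjusted p = 0.281). In MyD88pko podocytes, *Ripk1* was at 155 and 151 CPM untreated and at 101, 101 and 116 CPM in NTN, without overlap, and the log2 fold change was -0.53 ± 0.22 (adjusted p = 0.093, edgeR).

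The balance of the leading receptors was compared within each library, where the scaling between libraries drops out. The TPM of *Tnfrsf12a* exceeded that of *Tnfrsf21* by a ratio of 1.24, 1.70 and 2.09 in untreated PodTOM and of 1.86 and 2.44 in untreated MyD88pko libraries. In NTN the ratio was 4.87, 5.15 and 10.8 in PodTOM and 3.64, 4.75 and 5.83 in MyD88pko libraries. Every NTN library was above every untreated library in both genotypes. This ratio was chosen after the values were seen and was not tested. Together the TPM of both genes held 85.2 to 92.4% of the sum over the 7 receptors in each library, and the share of *Tnfrsf21* was 25.6 to 40.3% in untreated and 7.74 to 19.3% in NTN libraries.

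**Figure D2:**
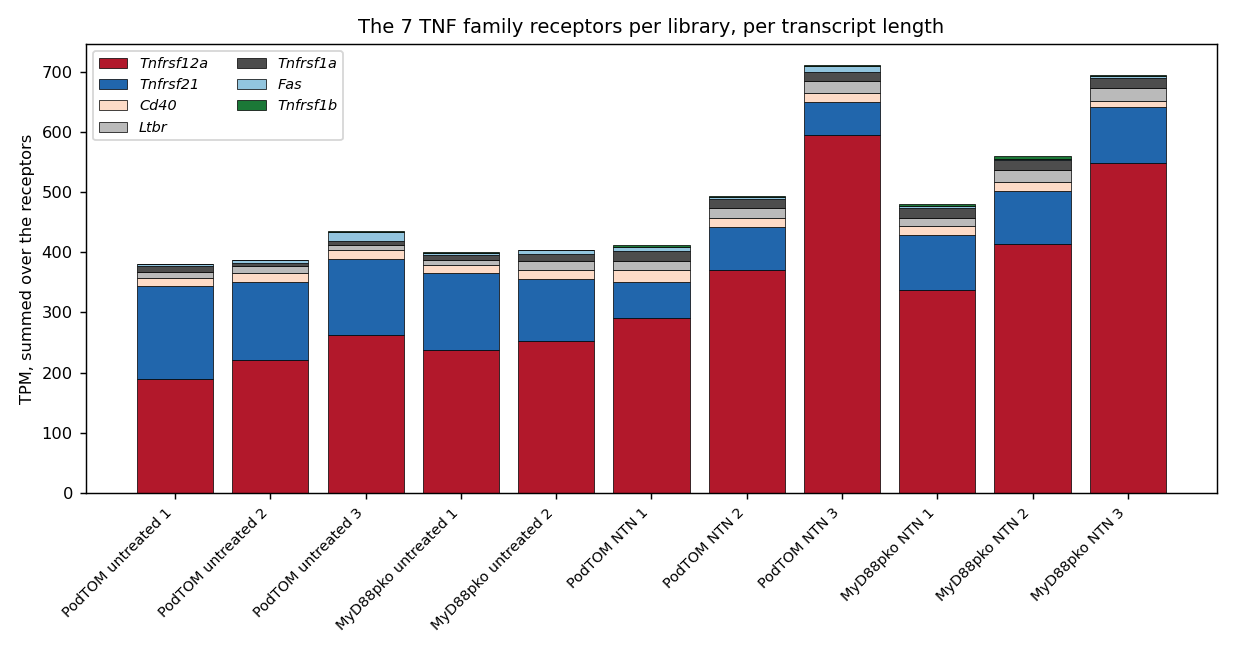
Stacked bars of the TPM of the 7 receptor genes in each library (y axis, summed TPM; x axis, the 11 libraries by group). *Tnfrsf12a* and *Tnfrsf21* fill 85.2 to 92.4% of every bar, and the *Tnfrsf21* part is 7.74 to 19.3% in NTN against 25.6 to 40.3% in untreated libraries.

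None of the 10 genes was called in MyD88pko NTN with edgeR, against 19.5% of all genes in this comparison (11.3% higher and 8.22% lower). For 3 genes all NTN libraries were above all untreated libraries, as for 29% of all genes, and for 1 all were below, as for 22.5%. At an unadjusted p under 0.05 there were 4 (*Tnfrsf1a*, *Tnfrsf1b*, *Tnfrsf12a* and *Ripk1*), compared with 36.4% of all genes. DESeq2 called 3 of them (*Tnfrsf1a*, *Tnfrsf1b* and *Tnfrsf12a*), and a fit of the 5 MyD88pko libraries alone called these 3 and *Ripk1*. The shares of all genes called by DESeq2 and by that fit were not computed. Only 2 untreated libraries entered this comparison. Whether the response itself differed by genotype was therefore tested directly. No interaction between genotype and NTN was called for the 10 genes by edgeR or DESeq2 (0.00472% of all genes were by edgeR), and 1 gene had an unadjusted p under 0.05, as had 5.81% of all genes. This was *Tnfrsf21*, whose NTN response was 0.61 higher in MyD88pko on the log2 scale (95% interval 0.05 to 1.16, adjusted p = 0.824, edgeR). For *Tnfrsf1a* the interval of the difference was -1.24 to 0.35, for *Tnfrsf12a* -1.18 to 0.65, for *Tnfrsf1b* -2.08 to 1.30 and for *Ltbr* -1.70 to 0.26. A response 2-fold lower in MyD88pko lay within each of these intervals, and a response 2-fold higher only within that of *Tnfrsf1b*.

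**Figure D3:**
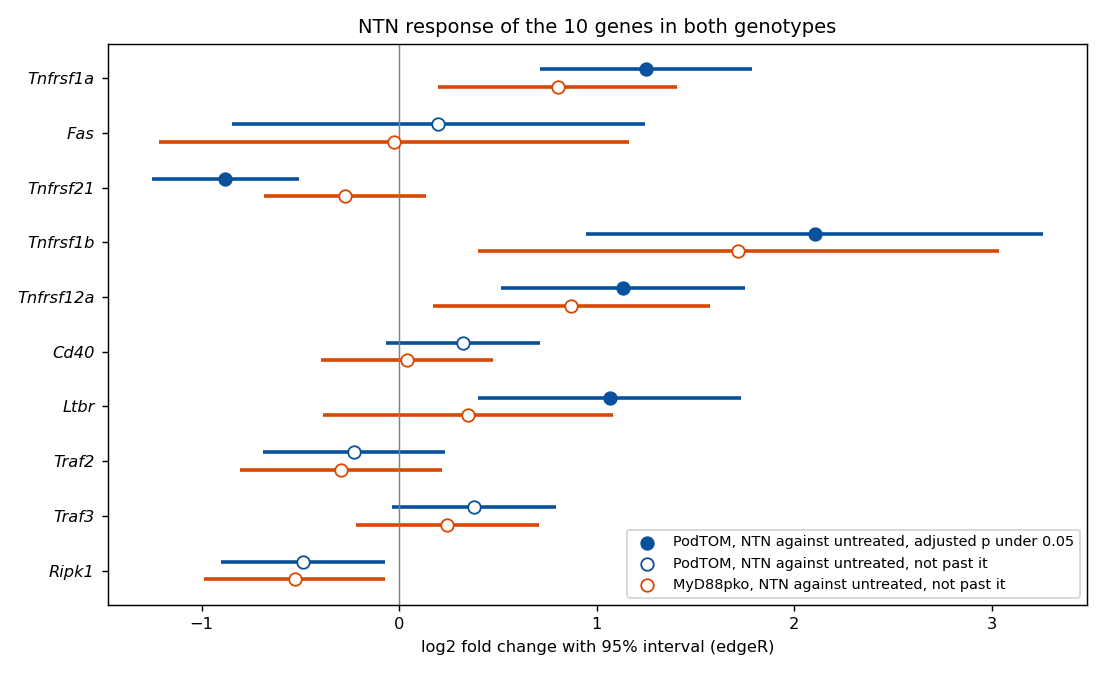
Log2 fold change of NTN against untreated (x axis) for the 10 genes (y axis) in PodTOM (blue) and MyD88pko (orange), with 95% intervals from edgeR. Filled points are past an adjusted p of 0.05, and the intervals of both genotypes overlap for each gene.

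The genotypes were also compared within each disease state. In NTN none of the 10 genes differed between MyD88pko and PodTOM (edgeR; 0.0613% of all genes did, and DESeq2 called none of the 10), and 1 had an unadjusted p under 0.05, as had 6.04% of all genes. This was *Cd40*, at 22.2, 23.2 and 17.8 CPM in MyD88pko against 30.4, 25.9 and 27.3 CPM in PodTOM NTN. All MyD88pko libraries were below all PodTOM libraries, as for 7.35% of all genes (5.29% were separated the other way), with a log2 fold change of -0.41 ± 0.18 (adjusted p = 0.802). Marker lists also differed between the NTN groups, with no marker gene called. Their median log2 fold changes were -0.80 (glomerular endothelial), -1.01 (mesangial), -0.93 (macrophage), -1.20 (proximal tubule), 0.01 (podocyte) and 0.17 (lymphocyte), against -0.01 over all genes. The part of these differences in the genotype results was not tested. *Tnfrsf1a* and *Tnfrsf1b* differed by -0.03 ± 0.25 and -0.11 ± 0.51 on the log2 scale between the NTN groups, with 95% intervals of -0.54 to 0.49 and -1.18 to 0.96. In untreated mice none of the 10 was called (edgeR, 0.0189% of all genes, and none by DESeq2) and none had an unadjusted p under 0.05, as had 5.6% of all genes. *Ripk1* was higher in both untreated MyD88pko libraries than in the 3 PodTOM libraries, as for 9.48% of all genes, and *Cd40* was lower in both, as for 8.5%. For *Ripk1* this came with a log2 fold change of 0.30 ± 0.22 (adjusted p = 0.987, edgeR).

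The annotated transcripts showed a change within *Ripk1* that the gene level did not. Of 36 transcripts of the 10 genes, 24 were tested, and 4 were called in PodTOM NTN (5.4% of all 58398 transcripts were, 3.07% higher and 2.33% lower). *Tnfrsf1a-201* and *Tnfrsf12a-202* rose and *Tnfrsf21-201* fell (log2 fold changes 1.30 ± 0.28, 1.41 ± 0.29 and -0.79 ± 0.18, with adjusted p of 0.026, 0.0235 and 0.0357 by edgeR), as their genes did. Without untreated replicate 1, untreated replicate 2 or NTN replicate 1 of PodTOM, the 4 calls became 2, 1 and 2. *Ripk1-201* fell, from 43.7, 47.4 and 32.5 CPM to 9.3, 6.9 and 4.7 CPM, a log2 fold change of -2.56 ± 0.28 (adjusted p = 0.00119, edgeR). Its share of the estimated counts of *Ripk1* was 28.7 to 40.6% in untreated and 3.82 to 12.6% in NTN PodTOM libraries. *Ripk1-203*, the most abundant on average over the 11 libraries, was at 31.8 to 33.5 CPM untreated and at 30.8, 25.6 and 66.2 CPM in NTN (log2 fold change 0.32 ± 0.30). In untreated PodTOM libraries *Ripk1-201* had the higher average, at 41.2 against 32.7 CPM. *Ripk1-202*, annotated without a coding sequence, had a log2 fold change of 0.27 ± 0.20. *Ripk1-204* was at 17.8 ± 5.93 CPM untreated and 8.42 ± 2.07 CPM in NTN, without overlap, and did not pass the test (log2 fold change -1.08 ± 0.33, adjusted p = 0.0891, edgeR). The most abundant transcripts of the remaining genes were not called in PodTOM NTN either, with log2 fold changes of 2.24 ± 0.67 for *Tnfrsf1b-201*, 1.19 ± 0.35 for *Ltbr-201*, 0.58 ± 0.71 for *Fas-201*, 0.41 ± 0.18 for *Cd40-201* and 0.45 ± 0.35 for *Traf3-201* (adjusted p from 0.0831 to 0.696). In MyD88pko podocytes no transcript of the 10 genes was called by edgeR (4.28% of all transcripts were). DESeq2 called 5, and its share over all transcripts was not computed. *Ripk1-201* was at 43.7 and 31.8 CPM untreated and at 25.2, 19.9 and 21.0 CPM in NTN there, a log2 fold change of -0.78 ± 0.29 (adjusted p = 0.17, edgeR). All 3 MyD88pko NTN libraries were above all 3 PodTOM NTN libraries. At the gene level 5.29% of all genes were separated in this direction, and the share of transcripts so separated was not computed. The difference of 1.66 ± 0.27 on the log2 scale had an adjusted p of 0.305 (edgeR), and 0.00171% of all transcripts (1 of 58398) were called in that comparison. *Ripk1-201* and *Ripk1-203* share all 1968 coding bases. Only 37 of the 3236 words of 31 bases in *Ripk1-201* occur in no other *Ripk1* transcript, against 3548 of 6442 in *Ripk1-203*, so that the estimate of *Ripk1-201* rests on a short stretch of sequence. For *Traf2* the most abundant transcript was *Traf2-203*, a retained-intron transcript with 78.4 to 95.4% of the counts of the gene.

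**Figure D4:**
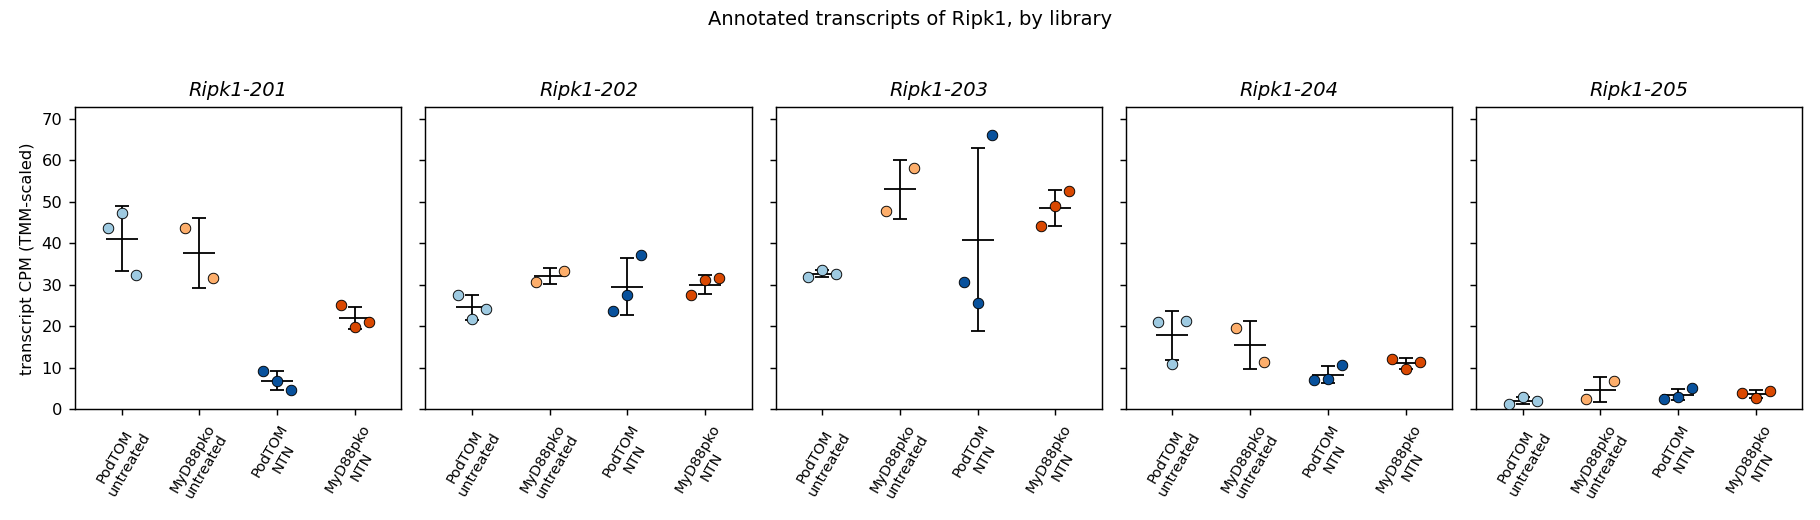
CPM of the 5 annotated transcripts of *Ripk1* (1 panel each, shared y axis) in the 11 libraries by group, with points for libraries and bars for the mean ± SD. *Ripk1-201* is at 4.7 to 9.3 CPM in PodTOM NTN and at 32.5 to 47.4 CPM in untreated PodTOM libraries.

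The transcripts of *Ripk1* begin at different positions on chromosome 13, *Ripk1-201* at 34002363 and *Ripk1-203* at 34002874. The 250 bases before each of these starts are shown because *Ripk1-201* fell and *Ripk1-203* was not called, and those of *Tnfrsf1a*, *Tnfrsf1b*, *Tnfrsf12a* and *Tnfrsf21* because these genes changed in PodTOM NTN. Promoters were matched for 9 of the 10 genes (*Cd40* had no entry) and are RefSeq sequences of GRCm38.p6, printed 5′ to 3′ on the strand of the gene. The RefSeq starts of *Tnfrsf1a* and *Tnfrsf12a* lie downstream of the gene starts given above, so that the *Tnfrsf1a* window falls within the annotated gene and the *Tnfrsf12a* window overlaps its first bases. Capitals mark matches to TTCNNNGAA (a STAT-type motif), TGANTCA (an AP-1-type motif) or GGGNNTTTCC (an NF-κB-type motif), each searched on both strands. No match overlapped another.
Tnfrsf1a (chr6:125349473-125349722, plus strand): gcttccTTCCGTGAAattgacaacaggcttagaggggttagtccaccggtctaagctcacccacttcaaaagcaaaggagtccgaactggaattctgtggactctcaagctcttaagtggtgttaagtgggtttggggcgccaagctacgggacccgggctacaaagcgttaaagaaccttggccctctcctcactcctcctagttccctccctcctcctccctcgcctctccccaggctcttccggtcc
Tnfrsf1b (chr4:145246871-145247120, minus strand): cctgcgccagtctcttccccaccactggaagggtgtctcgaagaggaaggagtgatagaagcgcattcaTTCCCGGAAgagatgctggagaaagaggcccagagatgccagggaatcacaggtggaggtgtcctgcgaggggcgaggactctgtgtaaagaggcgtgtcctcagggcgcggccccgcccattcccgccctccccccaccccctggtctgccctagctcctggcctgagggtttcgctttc
Tnfrsf12a (chr17:23677450-23677699, minus strand): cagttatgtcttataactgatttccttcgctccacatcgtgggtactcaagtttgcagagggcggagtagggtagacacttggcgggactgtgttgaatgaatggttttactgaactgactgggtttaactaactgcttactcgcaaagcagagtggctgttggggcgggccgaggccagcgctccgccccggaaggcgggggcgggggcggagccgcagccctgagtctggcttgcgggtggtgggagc
Tnfrsf21 (chr17:43016305-43016554, plus strand): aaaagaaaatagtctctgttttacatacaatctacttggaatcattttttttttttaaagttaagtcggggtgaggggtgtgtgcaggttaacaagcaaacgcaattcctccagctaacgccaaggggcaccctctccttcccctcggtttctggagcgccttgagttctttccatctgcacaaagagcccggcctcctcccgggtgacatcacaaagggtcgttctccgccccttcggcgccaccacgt
Ripk1 first start, before Ripk1-201 (chr13:34002113-34002362, plus strand): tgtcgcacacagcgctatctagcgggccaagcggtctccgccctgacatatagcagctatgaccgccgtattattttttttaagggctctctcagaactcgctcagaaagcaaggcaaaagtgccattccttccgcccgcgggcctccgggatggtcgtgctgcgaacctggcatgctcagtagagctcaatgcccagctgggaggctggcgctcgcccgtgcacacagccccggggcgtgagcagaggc
Ripk1 second start, before Ripk1-203 (chr13:34002624-34002873, plus strand): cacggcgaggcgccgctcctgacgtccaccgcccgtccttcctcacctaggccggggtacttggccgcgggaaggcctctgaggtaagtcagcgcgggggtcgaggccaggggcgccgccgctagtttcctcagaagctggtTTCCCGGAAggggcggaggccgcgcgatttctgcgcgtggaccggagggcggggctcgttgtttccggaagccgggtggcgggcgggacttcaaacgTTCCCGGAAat

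TTCNNNGAA was found in *Tnfrsf1a* (from -244 to -236 relative to the start), *Tnfrsf1b* (from -181 to -173), *Fas* (from -93 to -85) and at the second start of *Ripk1* (from -108 to -100 and from -11 to -3), whereas 7.02% of 32851 promoter windows of this length held it. The windows before *Tnfrsf12a*, *Tnfrsf21*, *Ltbr*, *Traf2* and the first start of *Ripk1* held none of the 3 motifs. GGGNNTTTCC was found only in *Traf3* (1.41% of all windows) and TGANTCA only in *Fas* (6.75%). Genes with TTCNNNGAA were thus among those that rose (*Tnfrsf1a*, *Tnfrsf1b*) and those that were not called (*Fas*, *Ripk1*). A match is a string of letters and was not tested for binding.

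The other genes of the pathway were followed in 7 lists with 105 genes, of which 96 were tested. In PodTOM NTN 18 rose and 12 fell, and in MyD88pko NTN 12 rose and 12 fell. Over all genes 25.9% were called in PodTOM NTN (15.9% higher, 9.93% lower) and 19.5% in MyD88pko NTN (11.3% higher, 8.22% lower), so that 30 and 24 of 96 lie near the background. The 24 calls in MyD88pko became 8 and 7 without untreated replicate 1 or 2 and 15 and 14 without NTN replicate 1 or 2. Of 20 other TNF receptors tested, 5 rose and 1 fell in PodTOM NTN and 3 rose and 3 fell in MyD88pko NTN, with median log2 fold changes of 0.46 and 0.08 (0.19 and 0.16 over all genes). These counts too are near the shares of 25.9% and 19.5% over all genes. *Tnfrsf11a*, which encodes RANK, rose from 28.8 ± 2.18 to 92.9 ± 20.0 CPM in PodTOM NTN, by 1.69 ± 0.24 on the log2 scale (adjusted p = 0.000215, edgeR), and from 33.2 ± 6.25 to 86.2 ± 30.8 CPM in MyD88pko NTN (adjusted p = 0.00335). *Tnfrsf13c*, the receptor for BAFF, rose in both genotypes (log2 fold changes 1.30 and 1.40), and *Tnfrsf13b*, which encodes TACI, fell in both (-1.43 and -1.57). *Cd27*, a receptor of lymphocytes, rose in PodTOM NTN from 3.49 ± 0.577 to 11.8 ± 2.40 CPM and was at 6.76 ± 1.01 and 7.61 ± 1.75 CPM in MyD88pko podocytes. *Tnfrsf23*, a decoy receptor of the mouse, fell in MyD88pko NTN (-1.08). *Eda2r*, the receptor of ectodysplasin A2, had no count in both untreated MyD88pko libraries and 93 in NTN, which is at least 12.2-fold higher against a floor of 3 counts for the untreated group. It was at 1.02 ± 0.784 and 2.04 ± 1.66 CPM in PodTOM podocytes.

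Of 11 ligands tested, 3 rose and none fell in each genotype, with a median log2 fold change of 1.02 in PodTOM and 1.03 in MyD88pko NTN, or of 0.70 and 0.85 with genes without a count in 1 group set at their bound. Over all genes 15.9% and 11.3% rose, with medians of 0.19 and 0.16. *Tnfsf10*, which encodes TRAIL, rose from 7.02 ± 3.41 to 18.1 ± 0.859 CPM in PodTOM NTN and from 6.55 ± 0.298 to 15.4 ± 2.59 CPM in MyD88pko NTN. *Tnfsf15*, which encodes TL1A, an endothelial cytokine, rose in both genotypes (log2 fold changes 1.02 ± 0.20 and 0.85 ± 0.23). *Tnfsf12* encodes TWEAK, the ligand of the Fn14 receptor, and rose in MyD88pko NTN from 17.1 ± 1.60 to 34.9 ± 4.52 CPM (adjusted p = 0.0136, edgeR). In PodTOM podocytes *Tnfsf12* was at 20.5 ± 4.72 CPM untreated and 28.3 ± 7.50 CPM in NTN (adjusted p = 0.142). *Fasl*, the ligand of *Fas*, had 3 counts in the untreated and 81 in the NTN PodTOM libraries, a ratio of 18.8 with a 95% counting interval of 6.22 to 93.2.

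Of 26 further adaptors, kinases and E3 ligases, 2 rose and 6 fell in PodTOM NTN, and none rose and 5 fell in MyD88pko NTN, with median log2 fold changes of -0.09 and -0.34, compared with 9.93% and 8.22% of all genes that fell and medians of 0.19 and 0.16. *Map3k5*, which encodes the stress kinase ASK1, fell from 183 ± 24.7 to 83.7 ± 8.21 CPM in PodTOM NTN, a log2 fold change of -1.13 ± 0.16 (adjusted p = 0.00012, edgeR), and from 190 ± 0.109 to 85.0 ± 12.1 CPM in MyD88pko NTN (-1.16 ± 0.17). *Tab2*, an adaptor of the kinase TAK1, fell in both genotypes (-0.93 and -0.81), and so did *Xiap*, an inhibitor of caspases (-0.59 and -0.62). *Ikbkb*, which encodes IKKβ, fell in MyD88pko NTN (-0.88 ± 0.15). *Rnf31*, the catalytic subunit of the linear ubiquitin ligase, rose in PodTOM NTN from 32.0 ± 4.22 to 51.4 ± 3.94 CPM and fell in MyD88pko NTN from 57.3 ± 6.04 to 37.6 ± 4.48 CPM. The difference of both responses was -1.30 ± 0.25 on the log2 scale, with an unadjusted p of 6.3e-05 and an adjusted p of 0.348 (edgeR).

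Of 10 brakes on TNF receptor signaling, 1 rose and 4 fell in PodTOM NTN, and 1 rose and 3 fell in MyD88pko NTN. Over all genes 9.93% and 8.22% fell and 15.9% and 11.3% rose. The median log2 fold changes were -0.13 and 0.10 (0.19 and 0.16 over all genes). *Cflar*, which encodes the caspase-8 inhibitor c-FLIP, fell from 334 ± 21.0 to 207 ± 20.9 CPM in PodTOM NTN and from 331 ± 20.2 to 202 ± 27.2 CPM in MyD88pko NTN (log2 fold changes -0.69 ± 0.14 and -0.71 ± 0.16). *Bag4*, which encodes the silencer of death domains, fell in both genotypes (-0.80 and -0.83), and so did *Tnip2* (-0.70 and -0.78), while *Tnip3* rose in both (1.52 and 1.68). *Tnip2* and *Tnip3* encode partners of A20. *Tnfaip3*, which encodes A20, an NF-κB-induced inhibitor of NF-κB, fell in PodTOM NTN from 491 ± 63.9 to 206 ± 94.5 CPM, a log2 fold change of -1.25 ± 0.28 (adjusted p = 0.00623, edgeR). In MyD88pko podocytes *Tnfaip3* was at 256 and 260.5 CPM untreated and at 309 ± 103 CPM in NTN. The difference of both responses had an adjusted p of 0.676. Among 8 cell death effectors, *Ripk3*, the kinase of necroptosis, was called higher in PodTOM NTN, with 2 counts in the untreated and 80 in the NTN libraries (ratio 27.9, 95% counting interval 7.48 to 234). It had 5 and 30 counts in MyD88pko podocytes, where it was not called.

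Of 4 genes of receptor sheddases and their regulators, *Adam10* fell in both genotypes (log2 fold changes -0.66 ± 0.17 and -0.58 ± 0.19). *Rhbdf2*, which encodes iRhom2, a partner of the TNF-releasing protease ADAM17, rose in MyD88pko NTN (0.92 ± 0.29). Over all genes 9.93% fell in PodTOM NTN, and 8.22% fell and 11.3% rose in MyD88pko NTN. *Tnfaip3*, which NF-κB induces, was counted with the brakes and not with the genes known to respond to TNF, and it fell in PodTOM NTN. Of the 17 tested genes of the latter list, 6 rose and none fell in PodTOM NTN, and 4 rose and none fell in MyD88pko NTN. The median log2 fold changes were 0.68 and 0.52 (0.46 in the latter with genes without a count in 1 group set at their bound). Over all genes 15.9% and 11.3% rose, with medians of 0.19 and 0.16. The chemokine genes *Cxcl1* and *Cxcl10* had the smallest adjusted p of this list in both genotypes (edgeR). Of its other chemokine genes, *Cxcl2* and *Ccl2* were not called in MyD88pko NTN. *Cxcl1* rose from 4.35 ± 1.43 to 34.1 ± 4.31 CPM in PodTOM NTN, a log2 fold change of 2.96 ± 0.33 (adjusted p = 1.8e-05, edgeR), and from 3.03 ± 0.056 to 29.6 ± 14.8 CPM in MyD88pko NTN (3.29 ± 0.40, adjusted p = 7.11e-05). *Cxcl10* rose in both genotypes (2.36 and 1.77), as did *Tnfaip2* (0.68 and 0.74) and *Csf1*, a growth factor of macrophages (1.53 and 1.01). With the vomeronasal signal as a covariate, the calls in the 7 lists went from 30 to 6 in PodTOM NTN. In MyD88pko NTN they went from 24 to 9. As that signal and NTN went together, these losses cannot be assigned to either.

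**Figure D5:**
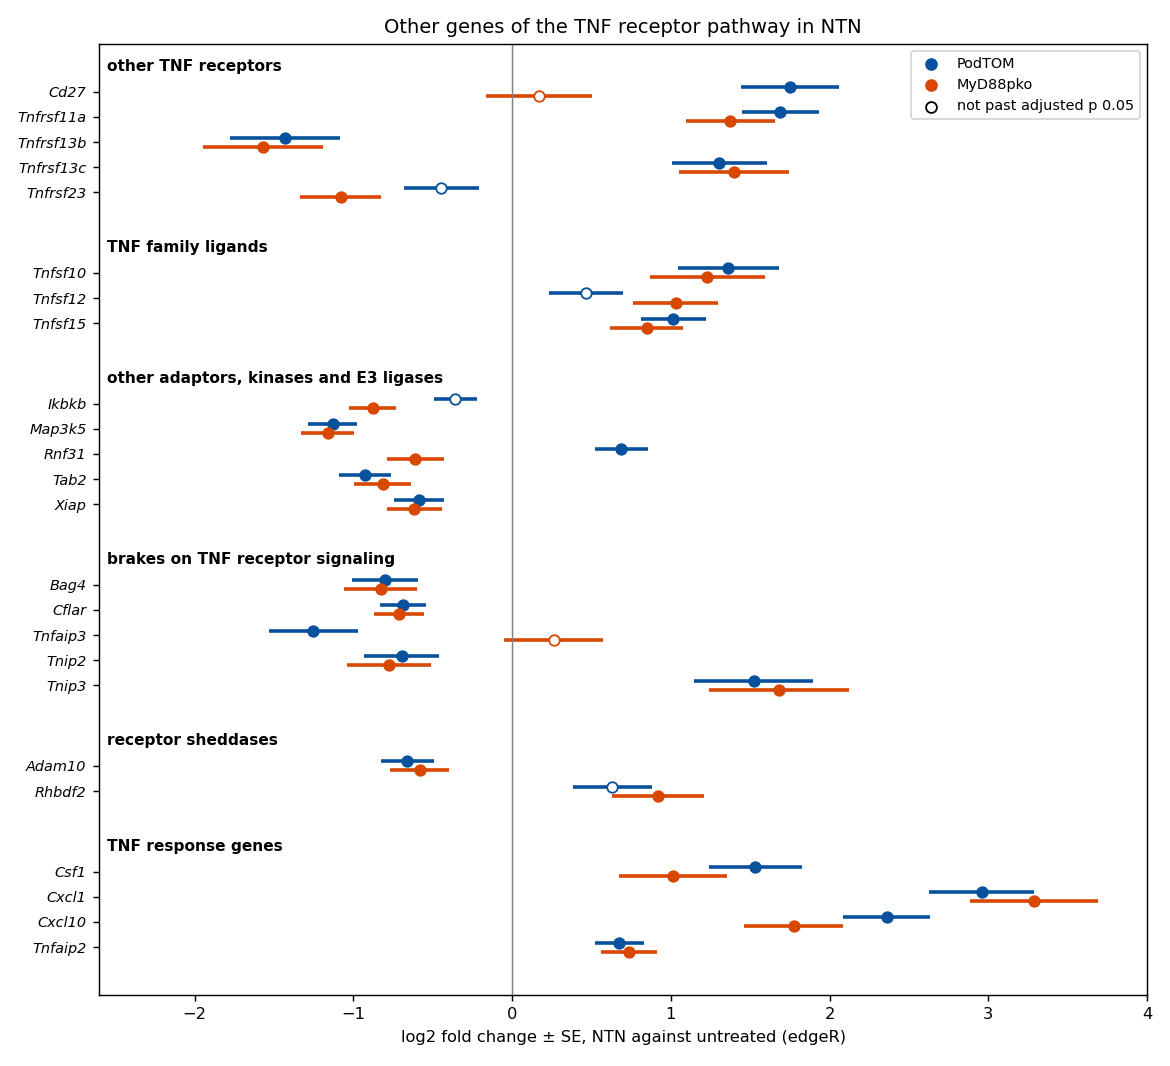
Log2 fold change ± SE of NTN against untreated (x axis) in PodTOM (blue) and MyD88pko (orange) for genes of 6 pathway lists (y axis) named by the rule, leaving out *Fasl* and *Eda2r*, which had 3 counts or none in 1 group. Filled points are past an adjusted p of 0.05, and *Cxcl1* has the largest values at 2.96 and 3.29.

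Across the 11 libraries, the levels most like that of *Tnfrsf12a* (Pearson's r of log2 CPM over 9351 genes averaging 10 CPM or more) were those of *Setd6* (0.952), *Bcl3* (0.948) and *Arnt* (0.921). *Bcl3*, which encodes an atypical IκB protein, was at 5.41 to 8.86 CPM in untreated libraries and at 7.59, 9.90 and 26.0 CPM in PodTOM and 8.29, 10.6 and 16.9 CPM in MyD88pko NTN. *Setd6* encodes a lysine methyltransferase and *Arnt* the partner of the hypoxia-inducible factors. For *Cd40* they were *Gimap6* (0.944), *Otoa* (0.943) and *Zfp488* (0.924). These values describe the 11 libraries, which differ in disease state, genotype and depth. The part of these differences in the correlations was not tested.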

How the data were processed

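Podocyte RNA was preamplified with poly(T) and random primers (Ovation RNASeq V2), made into Nextera XT libraries and sequenced on a NovaSeq as pairs of 2 × 100 bases. The deposited tables hold 1 row per transcript with estimated counts and effective lengths, which the authors made with cutadapt 3.5 and kallisto 0.43.1 against Ensembl 90 (GRCm38/mm10), as described in the study's methods, before testing with sleuth 0.3.0. Estimated counts are not normalized, and kallisto divides reads shared by transcripts, so that single transcripts are less certain than genes. Effective length, the other deposited column used, served to compute TPM here.

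From the files, counts of 107987 of 109282 transcripts were summed over genes through GENCODE M21 (GRCm38) and rounded. One edgeR 4.0.16 model (R 4.3.3) was fitted over all 11 libraries with 4 group coefficients, TMM scaling, filterByExpr with a minimum count of 10 and the robust quasi-likelihood test. Benjamini-Hochberg adjustment ran over all genes of a comparison, with 0.05 as threshold. Transcripts were tested in the same way. CPM are TMM-scaled. Intervals are 95% intervals and cover the spread between libraries, except those named counting intervals. The scripts were tested on simulated counts. Alternatives were DESeq2 1.42.0, DESeq2 size factors, other filters, limma 3.58.1 on log2(TPM + 1) for genes averaging 1 TPM or more, length-scaled counts, fits of the compared libraries only, each library left out, the 3 NTN libraries with most vomeronasal receptor signal left out, and that signal as a covariate.

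The 10 genes, the pathway lists and the marker lists were chosen with earlier results of these data known. Named were all 10 genes, up to 4 genes per pathway list and NTN comparison with the smallest adjusted p under 0.05, the most abundant transcript of each of the 10 genes and those called in NTN, and the 3 genes most like *Tnfrsf12a* and *Cd40*. *Myd88* was named as the targeted gene. Marker genes, *Ripk1-202* and *Ripk1-204* were named after their values were seen. Replicates were numbered in accession order, which pairs no samples.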

Additional observations from a re-analysis of the deposited data

How the results depend on the processing

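No paired analysis was possible because the replicates carry no shared numbers in the labels. Of the 10 genes, 5 were called in PodTOM NTN, 3 without the 3 libraries with most vomeronasal receptor signal and 1 with that signal as a covariate, and leaving out each library gave 3 to 6. In MyD88pko NTN none was called in the main analysis (4 had an unadjusted p under 0.05). There, 1 was called with DESeq2 size factors, 3 by DESeq2, 2 without a filter on low counts, 2 with a mean of at least 5 CPM, 4 in the fit of the compared libraries, 1 without the 3 libraries, 1 with the covariate, and 0 to 2 on leaving out each library. The counts of 0 for both genotype comparisons and for the interaction were 0 under every alternative run (0 to 0 on leaving out each library); the fit of the compared libraries does not apply to the interaction. The 30 pathway genes called in PodTOM NTN became 6 with the covariate and 22 to 37 on leaving out each library. The 24 in MyD88pko NTN became 7 without the 3 libraries, 9 with the covariate and 7 to 25 on leaving out each library. The 4 transcripts called in PodTOM NTN became 8 by DESeq2, 2 without the 3 libraries and 1 to 5 on leaving out each library, and the 0 in MyD88pko NTN became 5 by DESeq2 and stayed at 0 on leaving out each library. No called log2 fold change of the 10 genes changed its sign under the alternatives run. *Tnfrsf1b* and *Fas* were not among the genes averaging 5 CPM or more. In PodTOM NTN, limma on log2(TPM + 1) left *Ltbr* (adjusted p = 0.0696) and *Tnfrsf1b* (adjusted p = 0.095) uncalled. The cause of these shifts was not tested, and shares over all genes or transcripts were computed for the main analysis only. The covariate went together with NTN, so that calls lost with it cannot be assigned to either. With 2 untreated MyD88pko libraries and 26 to 90 counts for *Fas*, changes of about 2-fold can be missed.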
